A study of Homo sapiens with 8 samples.

Results

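A set of 94 protein-coding genes on the long arm of human chromosome 16 is described here, out of 57773 genes with a count row. The genes were chosen by measured values, since the borders of 3 stretches of the chromosome were set on the difference between CHD7 knockout and WT in these same libraries. A gene was a member if its leftmost base on GRCh37 lay at chr16:49521435-53632065 (the first raised run, 16 genes over 4.11 Mb), chr16:83752916-85832239 (the second raised run, 26 genes over 2.08 Mb) or chr16:86563784-90168669 (the lowered run, 52 genes over 3.60 Mb), with CHD9, SALL1, MVD, RPL13 and TUBB3 left out. The raised runs were 30.1 Mb apart, and 732 kb separated the last start of the second raised run from the first start of the lowered run. The difference between CHD7 knockout and WT is therefore given as a description, with no test.

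All 8 libraries came from H9, a human embryonic stem cell (hESC) line grown in mTesR1 medium, with 2 replicates in each of 4 groups. WT carried an HA tag on CHD7 and was untreated. CHD7 knockout was homozygous for a disrupted CHD7 gene (CHD7 -/-) and untreated, and by the study's methods such lines were grown from single colonies after CRISPR-Cas9 editing of exon 2. HERVH knockdown was the tagged WT line treated for 24 h with LNA-GapmeRs, locked nucleic acid oligonucleotides that direct cleavage of the endogenous retroviral HERVH RNA. HERVH element deleted cells lacked 1 HERVH copy on chromosome 2 and were untreated. The knockdown was compared with untreated WT because no library treated with a control oligonucleotide is among those analysed here. The labels do not tie replicates to clones, so genotype and clone cannot be told apart, and genomic DNA was not analysed here.

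CHD7 is an ATP-dependent chromatin remodeler of the chromodomain helicase family that acts mainly at enhancers, and mutation of CHD7 causes CHARGE syndrome. HERVH is an endogenous retrovirus whose long terminal repeats drive abundant transcripts in pluripotent human cells. The members share stretches of chromosome and not a pathway: among them are chromatin proteins, cell cycle and DNA repair factors, ubiquitin enzymes, transporters and cilium genes.

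The libraries held 14802049 to 23156445 counts assigned to genes, so that 3 counts equalled 0.128 to 0.219 CPM (counts per 1000000 counts, scaled by TMM factors). CHD7 itself was at 651 and 650 CPM in WT, 197 and 197 in CHD7 knockout, 626 and 514 in HERVH knockdown and 711 and 691 in HERVH element deleted cells, so the transcript was lower in the libraries labelled knockout. All 10 pluripotency markers examined, POU5F1, NANOG and SOX2 among them, were expressed, with a sum of 7943 to 9251 CPM per library. The 10 germ layer markers summed to 2.87 to 5.30 CPM, and 2 of them passed the filter on low counts. HERVH knockdown replicate 2 was the shallowest library and stood apart from replicate 1: the median SD of a gene between replicates was 0.254 log2 units in the knockdown against 0.0821 to 0.125 in the other groups.

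Of the 94 members, 92 had a count row, since CHD9NB and ENSG00000288715 had none. The filter on low counts kept 81 members, 14 in the first raised run, 22 in the second and 45 in the lowered run. The 11 counted members below it were SNX20 in the first raised run (at most 3 counts in a library), SLC38A8, ADAD2, KCNG4 and CIBAR2 in the second (at most 10) and FOXC2, FOXL1, CA5A, PRDM7, ENSG00000131152 and ENSG00000198211 in the lowered run (at most 13). At this depth a difference in these genes was not detectable.

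In CHD7 knockout, the tested genes of both raised runs lay above their WT level and those of the lowered run below it. The median log2 difference between CHD7 knockout and WT was 0.94 in the first raised run (1.92-fold, quartiles 0.59 and 1.12), 0.97 in the second (1.95-fold, quartiles 0.77 and 1.04) and -0.69 in the lowered run (0.622-fold, quartiles -0.95 and -0.49). Over all 23474 genes tested the median was -0.01. The CHD7 knockout replicates, each set against the WT mean, had medians of 0.98 and 0.90 in the first raised run, 0.98 and 0.82 in the second and -0.64 and -0.77 in the lowered run. In bulk RNA, fewer cells of a type and less RNA per cell cannot be told apart.

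The direction was shared by nearly every tested member. The difference was above 0 for 14 of 14 and 22 of 22 genes of the raised runs and below 0 for 43 of 45 genes of the lowered run. Of all 23474 genes tested, 11379 were above 0 and 12095 below it, with quartiles of -0.25 and 0.25. The difference was at least 0.2 log2 units in the direction of the run for 13, 22 and 41 genes of the first raised, second raised and lowered runs. It reached 1 log2 unit, or 2-fold, for 7 and 9 genes of the raised runs and for 9 of the lowered run. The shares of all genes at these limits were not counted. Both CHD7 knockout libraries lay above both WT libraries for 12 of 14 and 20 of 22 genes of the raised runs, where 21.5% of all genes tested did so, and below both for 41 of 45 genes of the lowered run, where 22.4% of all genes did so. They lay above all 6 other libraries for 12 and 19 genes of the raised runs (9.82% of all genes tested) and below all 6 for 32 genes of the lowered run (7.45%). These shares follow from how the runs were chosen, and for WFDC1 of the second raised run also from the filter on low counts, as described below. The plot of each gene in chromosome order shows the run medians and the genes that depart from them.

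**Figure D1:**
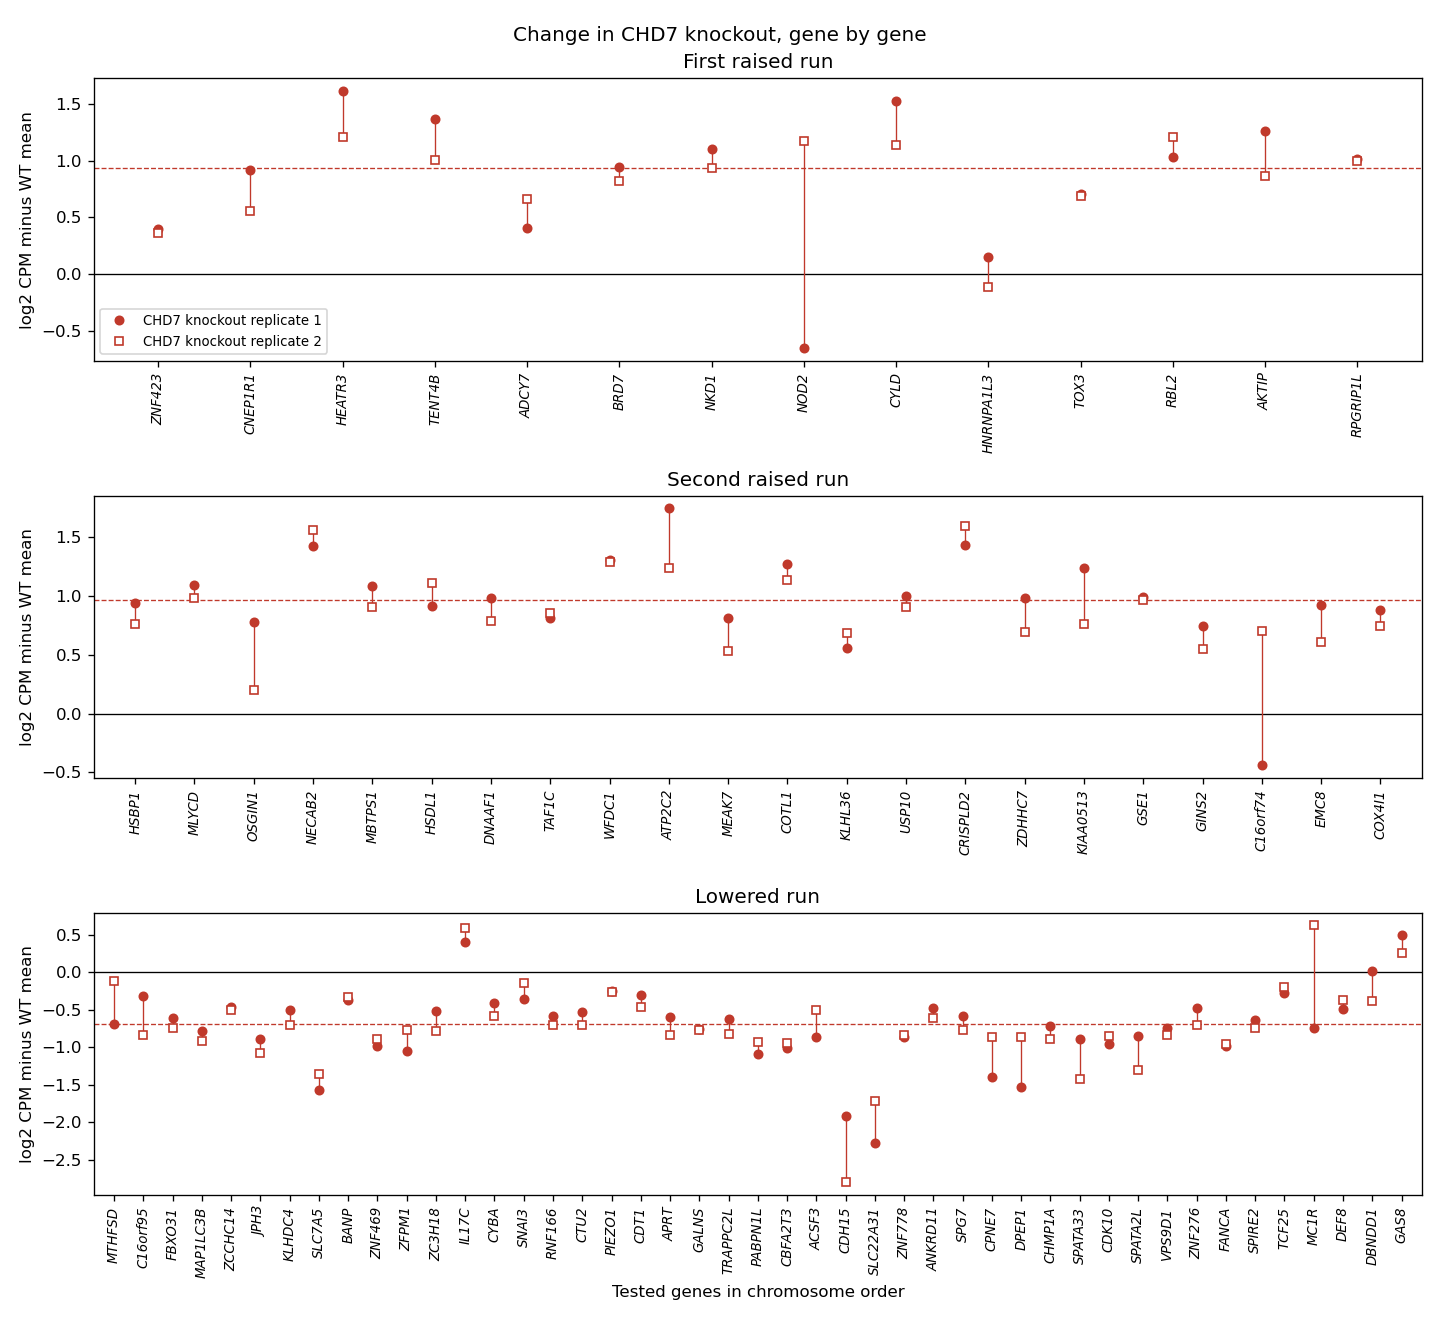
Log2 CPM of each CHD7 knockout replicate minus the WT mean (vertical axis) for the tested genes of the 3 runs in chromosome order (horizontal axis); the dashed line is the median log2 difference of the run and the solid line marks no difference. Nearly all genes of the raised runs lie above 0 and nearly all of the lowered run below it, whereas HNRNPA1L3, IL17C, DBNDD1 and GAS8 lie near 0 or on the other side. The replicates of MC1R, NOD2 and C16orf74, which had few counts, lie far apart on either side of 0.

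Among transcription and chromatin genes of the first raised run, ZNF423, a zinc finger factor that binds SMAD and EBF proteins (chr16:49521435-49891830, minus strand), had the highest level and nearly the smallest difference. ZNF423 was at 117 and 116 CPM in WT, 154 and 149 in CHD7 knockout, 124 and 107 in HERVH knockdown and 108 and 116 in HERVH element deleted cells. Its CHD7 knockout libraries exceeded the other 6, but the log2 difference from WT was only 0.38 (SE 0.145). BRD7, a bromodomain subunit of the PBAF remodeler (chr16:50347398-50402899, minus strand), was at 80.9 and 61.4 CPM in WT, 136 and 125 in CHD7 knockout, 71.8 and 45.6 in HERVH knockdown and 85.1 and 75.4 in HERVH element deleted cells. Its CHD7 knockout values did not overlap the rest, and the log2 difference from WT was 0.87 (SE 0.209). TOX3, an HMG-box protein, differed by 0.70.

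RBL2 encodes p130, the pocket protein that represses cell cycle genes in quiescence (chr16:53467889-53525560, plus strand). RBL2 was at 22.3 and 18.9 CPM in WT, 42.1 and 47.7 in CHD7 knockout, 20.0 and 14.3 in HERVH knockdown and 23.8 and 17.9 in HERVH element deleted cells, a log2 difference of 1.12 (SE 0.218) between CHD7 knockout and WT, with no overlap between the knockout and the other groups. HEATR3, which helps to import ribosomal protein L5 into the nucleus (chr16:50099878-50141183, plus strand), had the largest difference of the run. HEATR3 was at 16.3 and 17.7 CPM in WT, 52.2 and 39.4 in CHD7 knockout, 20.3 and 22.6 in HERVH knockdown and 18.4 and 19.9 in HERVH element deleted cells. The log2 difference was 1.43 (SE 0.196), or 2.70-fold.

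CYLD, a deubiquitinase that restrains NF-kB signalling (chr16:50775961-50835846, plus strand), was second in size. CYLD was at 13.1 and 13.6 CPM in WT, 38.6 and 29.5 in CHD7 knockout, 18.9 and 16.2 in HERVH knockdown and 16.5 and 15.8 in HERVH element deleted cells, with a log2 difference of 1.35 (SE 0.203) between CHD7 knockout and WT. TENT4B, a noncanonical poly(A) polymerase (chr16:50186822-50269221, plus strand), was at 19.3 and 16.0 CPM in WT, 45.4 and 35.3 in CHD7 knockout, 17.4 and 12.3 in HERVH knockdown and 20.9 and 18.8 in HERVH element deleted cells, a log2 difference of 1.20 (SE 0.220). For both genes the CHD7 knockout libraries were the highest of the 8. The other members above a mean log2 CPM of 2 had log2 differences of 1.09 for AKTIP, part of a vesicle transport complex, 1.03 for NKD1, an inhibitor of WNT signalling, 1.01 for RPGRIP1L, a protein of the ciliary transition zone, and 0.76 for CNEP1R1, a regulatory subunit of a lipin phosphatase.

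HNRNPA1L3 was the tested gene of the first raised run that did not follow it (chr16:51587347-51681043, plus strand). It was at 13.1 and 12.5 CPM in WT, 14.2 and 11.8 in CHD7 knockout, 10.8 and 19.7 in HERVH knockdown and 15.7 and 13.4 in HERVH element deleted cells. The CHD7 knockout and WT libraries overlapped, with a log2 difference of 0.02 (SE 0.264), although genes on both sides of it, CYLD and TOX3, were higher in the knockout. HNRNPA1L3 is a near copy of HNRNPA1, so reads of the parent gene may be counted there and its values are uncertain. NOD2, a sensor of bacterial peptidoglycan, had at most 17 counts in a library, and 1 CHD7 knockout library lay below the WT mean and the other above it. ADCY7, an adenylyl cyclase, had 34 to 90 counts and a log2 difference of 0.55 (SE 0.370).

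In the second raised run, the most abundant members followed the run closely. USP10, a deubiquitinase whose substrates include p53 (chr16:84733592-84813528, plus strand), was at 123 and 129.7 CPM in WT, 253 and 237 in CHD7 knockout, 154 and 122 in HERVH knockdown and 139.7 and 135 in HERVH element deleted cells. The log2 difference was 0.96 (SE 0.152), and the knockout libraries lay well above the other 6. GSE1, a component of a histone deacetylase corepressor complex (chr16:85203131-85709810, plus strand), was at 87.9 and 95.1 CPM in WT, 182 and 179 in CHD7 knockout, 92.7 and 109 in HERVH knockdown and 87.2 and 85.5 in HERVH element deleted cells, a log2 difference of 0.98 (SE 0.148). The replicates of CHD7 knockout were closer together for GSE1 than for most members, at 0.99 and 0.97 log2 units above the WT mean.

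COX4I1, a subunit of cytochrome c oxidase (chr16:85832239-85840674, plus strand), was at 70.2 and 63.7 CPM in WT, 123 and 112 in CHD7 knockout, 60.4 and 87.3 in HERVH knockdown and 68.9 and 71.2 in HERVH element deleted cells. Its log2 difference between CHD7 knockout and WT was 0.82 (SE 0.181). HSBP1, which binds heat shock factor (chr16:83752916-83853342, plus strand), was at 65.6 and 55.4 CPM in WT, 116 and 102 in CHD7 knockout, 52.2 and 41.6 in HERVH knockdown and 56.5 and 58.6 in HERVH element deleted cells, a log2 difference of 0.85 (SE 0.171). Both genes were highest in the CHD7 knockout libraries. They are the last and the first gene of the run, respectively, and the run borders were set on this difference.

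The 4 members of the second raised run with the highest fitted differences had few reads, and WFDC1 cannot be ordered among them at its depth. WFDC1, a secreted protease inhibitor-like protein, had at most 13 counts in a library. CPM values were 0.139 and 0.234 CPM in WT, 0.601 and 0.592 in CHD7 knockout, 0 and 0.291 in HERVH knockdown and 0.256 and 0.378 in HERVH element deleted cells, a log2 difference of 1.65 with an SE of 0.928. ATP2C2, a calcium pump of the secretory pathway, was at 1.52 and 1.12 CPM in WT, 4.62 and 3.23 in CHD7 knockout, 0.821 and 1.02 in HERVH knockdown and 1.62 and 1.03 in HERVH element deleted cells, a log2 difference of 1.57 (SE 0.399). The knockout libraries of both genes exceeded all others, at levels close to the detection limit for WFDC1. WFDC1 passed the filter on low counts only through CHD7 knockout, with 13 and 11 counts against at most 7 in any other library. Its higher level there was thus fixed by the filter, and WFDC1 adds no weight to the counts of genes above WT.

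CRISPLD2, a secreted protein (chr16:84853591-84954374, plus strand), was at 4.57 and 2.99 CPM in WT, 10.2 and 11.3 in CHD7 knockout, 2.57 and 2.69 in HERVH knockdown and 2.61 and 2.81 in HERVH element deleted cells. The log2 difference was 1.51 (SE 0.284). The HERVH knockdown and HERVH element deleted libraries of CRISPLD2 lay below both WT libraries. These log2 differences from WT, -0.52 (SE 0.304) and -0.48 (SE 0.297), were not called by edgeR at an FDR below 0.05. NECAB2, a neuronal calcium-binding protein (chr16:84001849-84036381, plus strand), was at 2.17 and 4.02 CPM in WT, 8.09 and 8.93 in CHD7 knockout, 1.53 and 5.03 in HERVH knockdown and 2.31 and 2.48 in HERVH element deleted cells, a log2 difference of 1.46 (SE 0.435).

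The remaining members of the second raised run above a mean log2 CPM of 2 had log2 differences from 0.62 to 1.20. For the enzymes MBTPS1 (the protease that activates SREBP factors), MLYCD (malonyl-CoA decarboxylase), ZDHHC7 (a palmitoyltransferase) and HSDL1 the log2 differences were 1.0, 1.04, 0.85 and 1.02. TAF1C, of the RNA polymerase I promoter factor, and GINS2, of the replicative helicase, differed by 0.81 and 0.65. The actin-binding protein COTL1 differed by 1.20, KIAA0513 by 1.03, MEAK7 by 0.68, KLHL36 by 0.62 and EMC8, of the endoplasmic reticulum membrane complex, by 0.76. Below that level, DNAAF1, a dynein arm assembly factor, differed by 1.01 (SE 0.567) and OSGIN1 by 0.60 (SE 0.963), the latter with overlapping groups. C16orf74 had the smallest difference, 0.24 (SE 0.478), and its CHD7 knockout values of 1.02 and 2.37 CPM lay on either side of the WT values of 1.29 and 1.54.

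**Figure D2:**
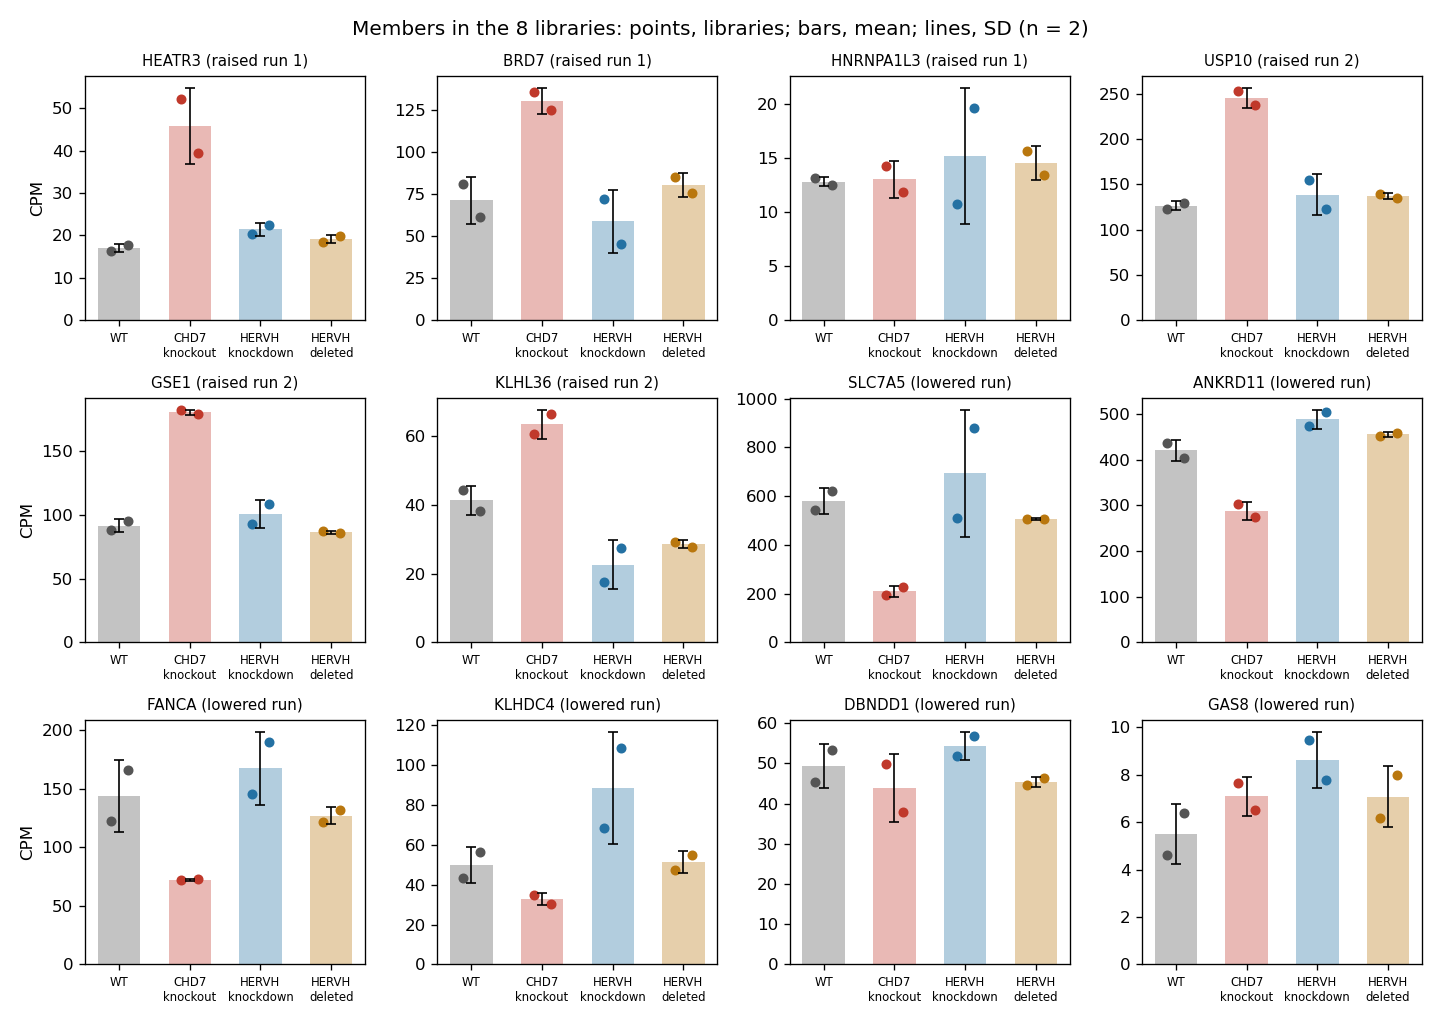
CPM (vertical axis) of 12 members in the 4 groups (horizontal axis); points are libraries, bars the mean of 2 replicates and lines the SD. CHD7 knockout stands above the other groups for HEATR3, BRD7, USP10, GSE1 and KLHL36 and below them for SLC7A5, ANKRD11, FANCA and KLHDC4, while HNRNPA1L3, DBNDD1 and GAS8 do not follow their run.

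SLC7A5 carried the largest amount of RNA in the lowered run and also 1 of its largest differences. It encodes LAT1, the importer of leucine and other large neutral amino acids (chr16:87863629-87903113, minus strand). SLC7A5 was at 542 and 619 CPM in WT, 194 and 225 in CHD7 knockout, 509 and 878 in HERVH knockdown and 508 and 504 in HERVH element deleted cells. The CHD7 knockout libraries were the lowest of the 8, with a log2 difference of -1.47 (SE 0.210), or 0.361-fold. Per kilobase of exon, the WT level of SLC7A5 was 122 RPKM, against 63.1 for APRT and 52.0 for CDT1, the next genes of the run on this scale.

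ANKRD11, a chromatin regulator that recruits histone deacetylases (chr16:89334038-89556969, minus strand), was at 437 and 405 CPM in WT, 303 and 274 in CHD7 knockout, 473 and 504 in HERVH knockdown and 452 and 459 in HERVH element deleted cells, a log2 difference of -0.54 (SE 0.136). ZC3H18, which links the RNA cap-binding complex to RNA decay (chr16:88636811-88698372, plus strand), was at 174 and 187 CPM in WT, 126 and 105 in CHD7 knockout, 201 and 199 in HERVH knockdown and 206 and 211 in HERVH element deleted cells, a log2 difference of -0.65 (SE 0.146). In both genes CHD7 knockout lay below every other library. SPG7, the mitochondrial protease paraplegin (chr16:89557127-89624174, plus strand), was at 147 and 170.3 CPM in WT, 106 and 92.8 in CHD7 knockout, 171 and 234 in HERVH knockdown and 142 and 156 in HERVH element deleted cells, a log2 difference of -0.68 (SE 0.173).

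Apart from SLC7A5, the members of the lowered run with the largest fitted differences had less RNA, and CDH15 cannot be ordered among them at its depth. CDH15, a cadherin of muscle and cerebellum (chr16:89238156-89261900, plus strand), was at 0.554 and 1.68 CPM in WT, 0.185 and 0.0538 in CHD7 knockout, 0.712 and 1.31 in HERVH knockdown and 0.556 and 0.863 in HERVH element deleted cells. The log2 difference was -3.12 (SE 0.830), with 1 count in CHD7 knockout replicate 2. SLC22A31, a member of the organic ion transporter family (chr16:89262169-89268059, minus strand), was at 5.13 and 9.82 CPM in WT, 1.39 and 2.10 in CHD7 knockout, 1.92 and 13.2 in HERVH knockdown and 8.12 and 6.31 in HERVH element deleted cells, a log2 difference of -2.11 (SE 0.639). Its HERVH knockdown replicates differed widely and replicate 1 came close to the CHD7 knockout. PABPN1L, a relative of the nuclear poly(A)-binding protein PABPN1, was at 1.06 and 0.608 CPM in WT, 0.324 and 0.377 in CHD7 knockout, 1.15 and 0.728 in HERVH knockdown and 1.33 and 1.29 in HERVH element deleted cells, a log2 difference of -1.24 (SE 0.589), and DPEP1, a membrane dipeptidase, differed by nearly the same amount, -1.24 (SE 0.457).

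Several other members of the lowered run act in transcription and chromatin. Their log2 differences between CHD7 knockout and WT were -0.95 for ZNF469, -0.91 for ZFPM1, the GATA cofactor FOG1, -0.87 for ZNF778, -0.64 for ZNF276, -0.49 for ZCCHC14, -0.36 for BANP, -0.25 for SNAI3 and -0.24 for TCF25. CBFA2T3, a transcriptional corepressor of blood cells, had 20 to 60 counts and differed by -1.04 (SE 0.436). TCF25 and SNAI3 had the smallest differences of this group, yet both CHD7 knockout libraries of each lay below both WT libraries. With a correction for exonic GC content the values of SNAI3 and TCF25 were -0.04 and -0.15.

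Among the members with roles in DNA replication, repair and the cell cycle, FANCA, the core component of the Fanconi anaemia DNA repair complex (chr16:89793091-89883385, minus strand), was at 122 and 166 CPM in WT, 71.8 and 72.9 in CHD7 knockout, 145 and 189.6 in HERVH knockdown and 122 and 132 in HERVH element deleted cells, a log2 difference of -0.99 (SE 0.181). The CHD7 knockout replicates of FANCA were nearly equal and lay well below the other 6 libraries. CDK10, a cyclin-dependent kinase, differed by -0.91, and CDT1, which licenses replication origins, by -0.38.

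For ubiquitin and autophagy genes the log2 differences were -0.85 for MAP1LC3B, the LC3 protein of autophagosomes, -0.81 for CHMP1A, an ESCRT-III subunit, -0.69 for the ubiquitin ligase subunit FBXO31 and -0.66 for the ubiquitin ligase RNF166. For metabolic enzymes they were -0.72 for APRT, which salvages adenine, -0.78 for the lysosomal sulfatase GALNS, -0.69 for ACSF3, a mitochondrial acyl-CoA synthetase, -0.63 for the tRNA-modifying enzyme CTU2 and -0.39 for MTHFSD. For genes of membranes and vesicles they were -0.99 for JPH3, which tethers endoplasmic reticulum to the plasma membrane, -0.50 for the NADPH oxidase subunit CYBA, -0.72 for TRAPPC2L, -1.15 for CPNE7, -0.86 for VPS9D1, -0.43 for DEF8 and -0.28 for the mechanosensitive channel PIEZO1. For the others they were -1.14 for SPATA33, -1.08 for SPATA2L, -0.70 for the actin nucleator SPIRE2, -0.61 for KLHDC4 and -0.60 (SE 0.452) for C16orf95, which had 15 to 38 counts. PIEZO1 had the smallest difference of these, and its CHD7 knockout libraries of 91.0 CPM and slightly less were just below the lower WT library of 92.0. With the GC correction PIEZO1 stood at -0.10, and CDT1 at -0.19.

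A few tested genes, 4 in all, did not follow the lowered run. With the GC correction the number was 8, since CDT1, PIEZO1, SNAI3 and TCF25 then also lay within 0.2 log2 units of 0. GAS8, a subunit of a complex that regulates dynein in cilia (chr16:90086037-90111383, plus strand), was at 4.62 and 6.41 CPM in WT, 7.67 and 6.51 in CHD7 knockout, 9.47 and 7.79 in HERVH knockdown and 6.16 and 7.99 in HERVH element deleted cells. Both CHD7 knockout libraries were above both WT libraries, with a log2 difference of 0.36 (SE 0.272), but the HERVH knockdown values were higher still. DBNDD1, a dysbindin domain protein (chr16:90071279-90086298, minus strand), was at 45.5 and 53.2 CPM in WT, 49.8 and 37.8 in CHD7 knockout, 52.0 and 56.9 in HERVH knockdown and 44.5 and 46.3 in HERVH element deleted cells, a log2 difference of -0.17 (SE 0.180) with overlapping groups. IL17C, an epithelial cytokine (chr16:88704980-88706876, plus strand), was at 1.99 and 3.65 CPM in WT, 3.60 and 4.09 in CHD7 knockout, 1.04 and 2.69 in HERVH knockdown and 1.28 and 1.40 in HERVH element deleted cells. Its log2 difference was 0.45 (SE 0.423), and 1 WT library of IL17C overlapped the CHD7 knockout. MC1R, the melanocortin receptor (chr16:89978527-89987381, plus strand), was at 0.970 and 2.20 CPM in WT, 0.832 and 2.31 in CHD7 knockout, 1.53 and 3.42 in HERVH knockdown and 0.727 and 1.13 in HERVH element deleted cells, with replicates of every group far apart, 17 to 47 counts and a log2 difference of -0.02 (SE 0.574).

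DBNDD1 and GAS8 are the last 2 tested members before the end of the chromosome arm. Of the tested noncoding genes that start beyond DEF8, the AFG3L1P pseudogene had a log2 difference of 0.00, URAHP of -0.13 and FAM157C of 0.13, while the sparsely counted GAS8-AS1 stood at 2.23. Thus the last protein-coding gene at least 0.2 log2 units lower in CHD7 knockout was DEF8 (chr16:90015105-90034468, plus strand). The noncoding transcripts and pseudogenes inside the runs were not listed by the rule. Their medians were 0.86 in the first raised run (8 tested), 0.77 in the second (10 tested) and -0.32 in the lowered run (33 tested). Mean log2 CPM was at or below 2 for all of those in the raised runs and for 26 in the lowered run. Both CHD7 knockout libraries lay above all 6 others for 1 and 5 genes of the raised runs (9.82% of all genes tested). They lay below all 6 for 8 genes of the lowered run (7.45%). In the second raised run, some of these noncoding genes, such as MBTPS1-DT and ATP2C2-AS1, passed the filter on low counts only with the CHD7 knockout libraries. VPS9D1-AS1 had the highest level among the noncoding genes of the lowered run below -1, with a log2 difference of -1.18. DBNDD1 and GAS8 overlap in the annotation, as do EMC8 and COX4I1. So do RPGRIP1L and FTO, the next tested protein-coding gene beyond the first raised run. Further overlaps in or at the raised runs include ADCY7 with BRD7, RBL2 with AKTIP, MLYCD with OSGIN1, DNAAF1 with TAF1C, and HSBP1 with CDH13. In the lowered run they include FBXO31 with MAP1LC3B, JPH3 with KLHDC4, CTU2 with PIEZO1, ZNF276 with VPS9D1 and FANCA, and TCF25 with MC1R. Whether the counting used strand is not given in the sources used here, so reads of overlapping neighbours may have been dropped or shared.

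The differences of the tested genes just inside and just outside the borders are given here as a description. To the left of the first raised run, N4BP1 had a log2 difference of -0.16 and CBLN1 of 1.48 at 1.40 to 5.27 CPM, against 0.38 and 0.76 for ZNF423 and CNEP1R1 inside. To the right, FTO had -0.77, against 1.01 and 1.09 for RPGRIP1L and AKTIP inside. IRX3, at 0.164 to 1.53 CPM, had -0.68 with an SE of 0.794. To the left of the second raised run, MPHOSPH6 had -0.24 and CDH13, with few counts, 2.05, against 0.85 and 1.04 for HSBP1 and MLYCD. Between the second raised run and the lowered run only IRF8 was tested, with 4 to 17 counts and a log2 difference of 1.01. EMC8 and COX4I1 were the last genes before the gap, at 0.76 and 0.82, and MTHFSD and C16orf95 the first after it, at -0.39 and -0.60. No protein-coding gene beyond the lowered run was tested.

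Elsewhere on chromosome 16, the median log2 difference between CHD7 knockout and WT was -0.08 over 374 tested protein-coding genes of the short arm and -0.08 over 198 genes between the raised runs. It was -0.44 over the 15 tested genes of the long arm before the first raised run. With the tested genes of a run split by position into 3 parts of like number, the medians from left to right were 0.76, 0.87 and 1.05 in the first raised run, 1.0, 1.20 and 0.82 in the second and -0.61, -0.72 and -0.81 in the lowered run. The SD of the log2 difference between genes was 0.40, 0.35 and 0.57 in the 3 runs. The median SE of a single gene was 0.22, 0.22 and 0.23. These SDs include genes with few counts and larger SEs, such as NOD2 (1.01), WFDC1 (0.928) and CDH15 (0.830). Whether genes of a run differ beyond such errors was not tested. Across genes of a run, which are not independent and share libraries, the difference had Spearman correlations with mean log2 CPM of 0.30 (n = 14), -0.18 (n = 22) and 0.16 (n = 45). With exonic GC content the correlations were -0.56, -0.05 and -0.25, and with position 0.09, -0.31 and -0.03.

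The last gene of the first raised run and the first tested protein-coding gene beyond it start from neighbouring, divergent sites. RPGRIP1L is read leftwards and FTO, an RNA demethylase, rightwards, and their RefSeq start sites lie 295 bases apart. FTO was at 91.5 and 78.0 CPM in WT, 51.2 and 48.2 in CHD7 knockout, 45.7 and 52.1 in HERVH knockdown and 80.8 and 70.9 in HERVH element deleted cells. RPGRIP1L was at 15.4 and 13.5 CPM in WT, 29.3 and 28.8 in CHD7 knockout, 13.7 and 8.74 in HERVH knockdown and 19.2 and 17.4 in HERVH element deleted cells. In CHD7 knockout the pair thus differed from WT in opposite directions, -0.77 for FTO and 1.01 for RPGRIP1L on the log2 scale. The run border was set on this same difference, so a break at this point follows from how the runs were chosen. FTO was also lower in HERVH knockdown than in WT, with a log2 difference of -0.79 (SE 0.166, edgeR quasi-likelihood FDR 0.0282, Benjamini-Hochberg). RPGRIP1L was not called in that comparison at -0.36 (SE 0.230). In HERVH knockdown against HERVH element deleted cells, FTO was not called at -0.63 (SE 0.165, edgeR FDR 0.0747). Nor was RPGRIP1L, at -0.70 (SE 0.229, edgeR FDR 0.134). RPGRIP1L and FTO overlap in the annotation on GRCh37 (chr16:53632065-53737850 and chr16:53735604-54192424), and the limit given above for overlapping neighbours applies to them. The windows from 250 bases before to 50 after each start were taken from RefSeq on GRCh38.p14. They share 204 bases (chr16:53703810-53704109, minus strand for RPGRIP1L and chr16:53703906-53704205, plus strand for FTO). They are shown because RPGRIP1L was the last gene of the run and FTO the next tested protein-coding gene. They are followed by the windows of SLC7A5 (chr16:87869458-87869757, minus strand), the most abundant member, and KLHL36 (chr16:84648261-84648560, plus strand), the member called in HERVH knockdown. Each runs 5′ to 3′ on the strand of its gene, and capitals mark matches on either strand to 5 promoter motifs. These were the GC box with the letters GGGCGG, the element bound by NF-Y with the letters CCAAT, the element bound by TBP with the letters TATAAA, the E-box with the letters CACGTG, and the cAMP response element with the letters TGACGTCA.
RPGRIP1L: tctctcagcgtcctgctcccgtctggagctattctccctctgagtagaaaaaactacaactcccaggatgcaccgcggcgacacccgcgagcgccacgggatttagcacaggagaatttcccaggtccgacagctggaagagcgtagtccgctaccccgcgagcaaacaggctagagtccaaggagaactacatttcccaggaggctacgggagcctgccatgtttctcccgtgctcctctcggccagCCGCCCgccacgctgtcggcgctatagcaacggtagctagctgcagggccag
FTO: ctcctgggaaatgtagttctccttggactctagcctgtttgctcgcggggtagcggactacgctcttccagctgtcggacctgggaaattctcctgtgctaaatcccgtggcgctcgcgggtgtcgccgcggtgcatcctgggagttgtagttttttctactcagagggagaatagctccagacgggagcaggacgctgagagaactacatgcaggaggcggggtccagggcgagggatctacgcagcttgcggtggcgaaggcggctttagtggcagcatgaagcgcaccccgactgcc
SLC7A5: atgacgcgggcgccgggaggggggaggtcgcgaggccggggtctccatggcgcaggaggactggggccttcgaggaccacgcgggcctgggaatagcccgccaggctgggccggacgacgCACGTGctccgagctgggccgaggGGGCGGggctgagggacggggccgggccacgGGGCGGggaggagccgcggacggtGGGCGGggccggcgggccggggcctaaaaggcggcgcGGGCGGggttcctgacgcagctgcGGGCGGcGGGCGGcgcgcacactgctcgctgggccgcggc
KLHL36: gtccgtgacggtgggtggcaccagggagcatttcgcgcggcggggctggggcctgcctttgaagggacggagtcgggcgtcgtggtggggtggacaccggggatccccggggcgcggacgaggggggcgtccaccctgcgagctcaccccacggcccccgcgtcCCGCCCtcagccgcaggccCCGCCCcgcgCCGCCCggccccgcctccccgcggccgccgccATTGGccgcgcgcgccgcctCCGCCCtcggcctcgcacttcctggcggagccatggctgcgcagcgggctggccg

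Such windows, the first listed for each gene, were found for 61 of the 81 tested members. They were GC-rich in all 3 runs, with a median GC content of 63.0%, 73.3% and 74.3% against 58.3% over all 27305 promoter windows. GGGCGG was present in 7 of 9, 15 of 17 and 33 of 35 windows of the first raised, second raised and lowered runs, and in 44.6% of all windows. CCAAT was found in 4, 6 and 5 windows of the runs and in 35.7% of all windows. TATAAA was found in 1 member window, of the lowered run, against 12% of all, CACGTG in 6 of 61 against 7.43% and TGACGTCA in 4 of 61 against 1.98%. The list of all windows includes noncoding genes and genes silent in hESCs, so these shares describe the windows and were not tested. SLC7A5 held 6 copies of GGGCGG and 1 E-box, RPGRIP1L a single GC box and FTO none of these letters.

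The other conditions did not show the shift of the runs as a whole. The comparison of each with WT shares the WT libraries with the contrast that set the borders. The summed CPM of the tested members of the first raised run was 337 and 307 in WT, 583 and 531 in CHD7 knockout, 329 and 277 in HERVH knockdown and 343 and 330.3 in HERVH element deleted cells. For the second raised run the sums were 627 and 643 in WT, 1240.4 and 1158 in CHD7 knockout, 625 and 705 in HERVH knockdown and 619.5 and 633 in HERVH element deleted cells. For the lowered run they were 2881 and 3279 in WT, 1881 and 1797 in CHD7 knockout, 3013 and 4375 in HERVH knockdown and 2806 and 2943 in HERVH element deleted cells. The CHD7 knockout sums lay outside those of the other 6 libraries in each run, and the lowered run sum of HERVH knockdown replicate 2 was the highest of the 8.

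**Figure D3:**
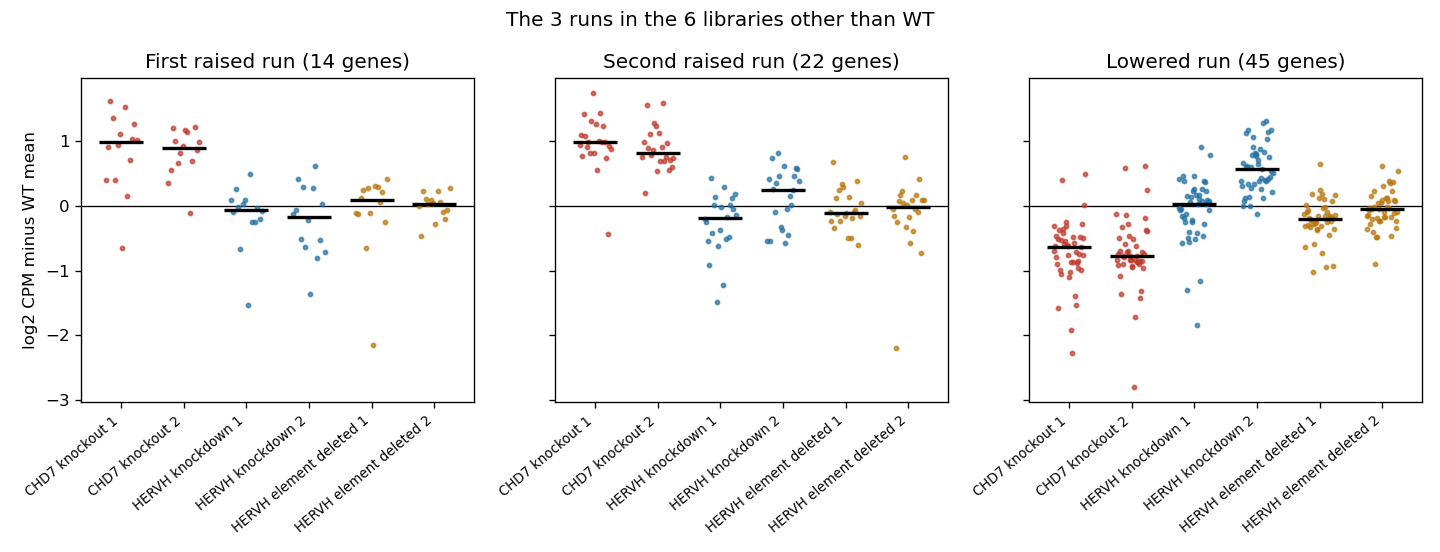
Log2 CPM minus the WT mean (vertical axis) of the tested members of each run in the 6 libraries other than WT (horizontal axis); points are genes and black lines medians. Medians of the CHD7 knockout libraries are 0.82 to 0.98 in the raised runs and -0.64 and -0.77 in the lowered run, and HERVH knockdown replicate 2 lies at 0.56 in the lowered run.

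In HERVH knockdown, the median log2 difference from WT was -0.11, 0.08 and 0.27 in the first raised, second raised and lowered runs, against 0.04 over all genes tested. By edgeR's quasi-likelihood test with Benjamini-Hochberg adjustment over all genes, 0 members were higher in HERVH knockdown than in WT at an FDR below 0.05, where 0.618% of all genes tested were higher, and 1 was lower, where 1.53% of all genes were. At an unadjusted p below 0.05, 15 of the 81 members differed (18.5%), 12 of them in the lowered run, against 19.0% of all genes tested. DESeq2 called 2 members, against 7.42% of the genes it gave an adjusted p. None met the study's rule for DEGs, an FDR below 0.01 and at least 2-fold.

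The member called was KLHL36, a BTB-kelch protein of the second raised run (chr16:84682117-84701292, plus strand). KLHL36 was at 44.2 and 38.2 CPM in WT, 60.4 and 66.3 in CHD7 knockout, 17.6 and 27.5 in HERVH knockdown and 29.3 and 27.7 in HERVH element deleted cells. It was lower in HERVH knockdown by a log2 difference of -0.88 (SE 0.211; FDR 0.0493, edgeR quasi-likelihood with Benjamini-Hochberg adjustment), in both replicates, while it was higher in CHD7 knockout. The HERVH element deleted libraries also lay below both WT libraries, by -0.53 (SE 0.208), which did not pass the test. The call of KLHL36 was near the threshold: over 16 settings its FDR by edgeR or DESeq2 ranged from 0.000212 to 0.390, and it was called in 8. The call was lost when any 1 library of WT, CHD7 knockout or HERVH element deleted cells was left out.

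KLHDC4, a kelch protein of the lowered run (chr16:87730091-87799598, minus strand), was called only under other settings. KLHDC4 was at 43.5 and 56.4 CPM in WT, 34.9 and 30.5 in CHD7 knockout, 68.5 and 109 in HERVH knockdown and 47.3 and 55.1 in HERVH element deleted cells, with a log2 difference of 0.82 (SE 0.219) that did not pass in the fit reported here (edgeR FDR 0.0678). KLHDC4 passed in DESeq2 (adjusted p 0.0129) and, in edgeR, with the GC correction (FDR 0.00491), without an expression filter (FDR 0.00297), with the replicate block (FDR 0.0437) and without HERVH knockdown replicate 1 (FDR 0.000252). Both knockdown libraries were above all WT and CHD7 knockout libraries.

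The number of members called turned on which knockdown library was kept. KLHL36 itself was lower than in WT with either left out, by log2 differences of -0.63 without replicate 1 and -1.24 without replicate 2. Without HERVH knockdown replicate 1, edgeR called 27 of the 82 members then tested against WT (32.9%), 20 of them higher members of the lowered run, and 15.8% of all genes. Without replicate 2 it called 5 members (6.1%), all lower, and 7.85% of all genes. The lowered run had a median of 0.03 in replicate 1 and 0.56 in replicate 2. Its exons were GC-rich, with a median GC content of 60.0%, against 43.6% and 52.4% in the raised runs and 47.6% over all genes tested. Across all 22744 genes with a GC value, the difference of replicate 2 from the WT mean had a Spearman correlation of 0.42 with exonic GC content, and that of replicate 1 of -0.14. Over the 81 tested members, the correlations were 0.54 and -0.12, beside -0.64 and -0.62 for the CHD7 knockout replicates, where the lowered run is also the GC-rich one. Across all genes with a GC value, the CHD7 knockout replicates had correlations of only -0.11 and -0.19. Their member values follow in part from how the runs were chosen. After GC correction the median of the lowered run in HERVH knockdown against WT was 0.13. The part of GC content in these values was not tested further.

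**Figure D4:**
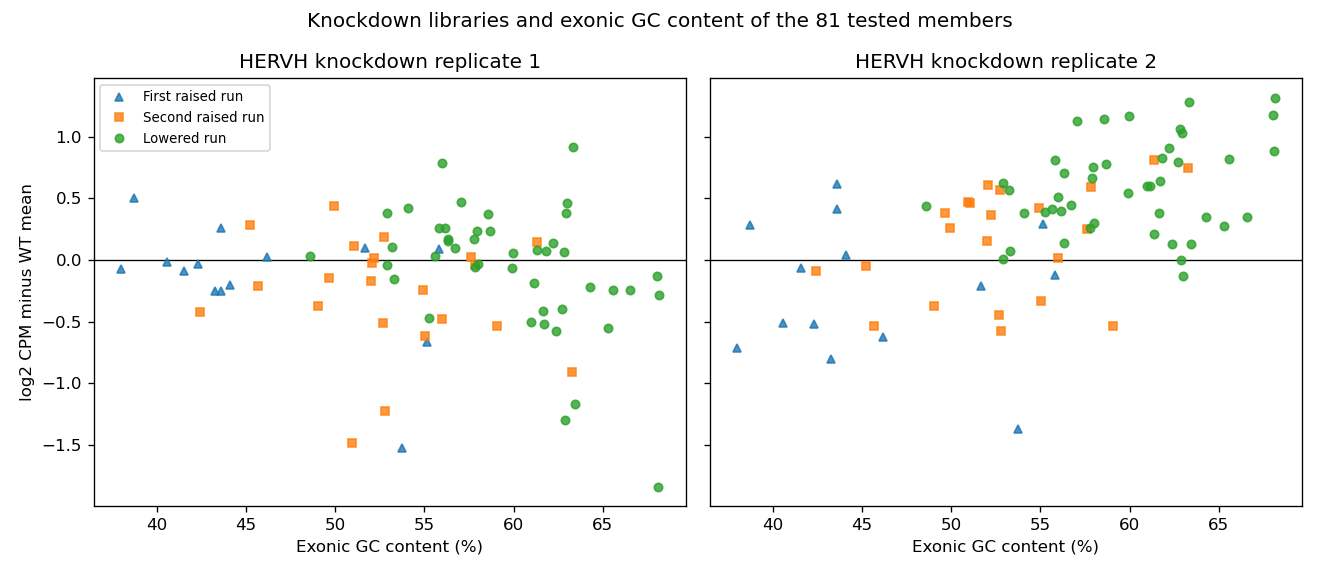
Log2 CPM of the HERVH knockdown replicates minus the WT mean (vertical axis) against exonic GC content in percent (horizontal axis) for the 81 tested members, marked by run. In replicate 2, the GC-rich genes of the lowered run lie mostly above 0 (median 0.56), while in replicate 1 they scatter about it (median 0.03).

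In HERVH element deleted cells, the median log2 difference from WT was 0.00, -0.07 and -0.13 in the 3 runs, against -0.02 over all genes tested. By edgeR's quasi-likelihood test no member was called (0 of 81), where 0% of all genes tested were called higher and 0.0724% lower. At an unadjusted p below 0.05, 2 members differed (2.47%), against 2.63% of all genes tested, and DESeq2 called 0 members, against 0.0921% of the genes it gave an adjusted p. The quartiles were -0.13 and 0.17 in the first raised run and -0.14 and 0.06 in the second, and 34 of 45 genes of the lowered run were below 0, as were 245 of 374 genes of the short arm and 127 of 198 genes between the raised runs. With the GC correction the median of the lowered run in this comparison was 0.00.

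The comparison of HERVH knockdown with HERVH element deleted cells used neither group that set the borders. The median log2 difference was 0.02, -0.02 and 0.45 in the 3 runs, against 0.04 over all genes tested and 0.26 over the short arm. By edgeR 0 of 81 members were called, where 0.648% of all genes tested were called higher and 0.686% lower. At an unadjusted p below 0.05, 26 members differed (32.1%), 22 of them in the lowered run, against 19.1% of all genes tested. DESeq2 called 3 members, against 6.01% of the genes it gave an adjusted p, namely SPATA2L, KLHDC4 and BANP, all of the lowered run and higher in HERVH knockdown. Again the count turned on 1 library: without HERVH knockdown replicate 1, 34 of 82 members were called (41.5%), 27 of them higher members of the lowered run, and 19.5% of all genes. Without replicate 2, 3 members were called (3.66%), KLHL36, CPNE7 and SLC22A31, all lower, and 3.93% of all genes.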

How the data were processed

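RNA of 8 H9 libraries was depleted of rRNA and sequenced with strand retained. STAR alignments to hg19 were counted per Ensembl GRCh37 gene with HTSeq by the authors, who deposited whole-number counts; tool versions and the strand setting of the counting are not given in the sources used here. Rows that name no gene (42.9% to 49.6% of a library) were left out of library sizes and tests. Reads in overlapping genes are dropped as ambiguous by such counting, and depth sets the precision of genes with few counts.

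The borders of the runs, the members and the gene lists were chosen with earlier results of these data known. Genes were placed with GENCODE v44 lifted to GRCh37 (96.1% of count rows matched). From the deposited counts, log2 fold changes were fitted to all 8 libraries with edgeR 4.0.16 in R 4.3.3 (TMM, filterByExpr, quasi-likelihood test, 4 residual degrees of freedom), and p-values were adjusted by Benjamini-Hochberg over the 23474 genes tested (FDR below 0.05). Values per library are TMM-scaled CPM; log2 CPM used a prior count of 2. DESeq2 1.42.0, RLE scaling, other filters, a fit of 4 libraries, a replicate block, a GC correction (loess, span 0.3) and leaving out each library were alternatives. The fitting was tested on simulated data. Nothing says that replicates came from separate cultures, so p-values measure the spread between these samples, which may be technical.

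In each run, the 4 tested members with the highest mean CPM, the 4 with the largest change in the direction of the run and those opposite to the run or within 0.2 log2 units of 0 were given with all 8 values. Other tested members above a mean log2 CPM of 2 were given by their log2 difference, members under the filter by name, and any member called elsewhere was named. KLHDC4, FANCA, FTO and RPGRIP1L were given all values after these had been seen. Promoter windows and motif matches came from RefSeq on GRCh38.p14.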

Additional observations from a re-analysis of the deposited data

How the results depend on the processing

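The 3 run medians between CHD7 knockout and WT kept their direction under every alternative. The first raised run, 0.94, stood at 1.01 without an expression filter, 1.05 with a filter of mean log2 CPM above 2, 1.02 in DESeq2 and 0.84 to 1.13 when a library was left out. The lowered run, -0.69, stood at -0.59 with the GC correction and -0.79 to -0.57 when a library was left out. The labels do not say what a replicate number marks, and same-numbered deviations correlated between -0.23 and 0.43 over pairs of groups. With the replicate block the medians were 0.95, 0.97 and -0.69, and with the CHD7 knockout numbers crossed, an alternative chosen after seeing the data, 0.96, 0.97 and -0.68. Members called in HERVH knockdown against WT, 1 as reported, numbered 3 without an expression filter, 0 with the stricter filter, 2 in DESeq2, 0 in the fit of 4 libraries, 2 with the replicate block (KLHL36 and KLHDC4), 3 with the GC correction, 0 under the DEG rule and 0 to 27 when a library was left out; the 27 came without HERVH knockdown replicate 1. Members called in HERVH knockdown against HERVH element deleted, 0 as reported, numbered 7 without an expression filter, 3 in DESeq2, 3 with the GC correction and 0 to 34 when a library was left out, with 34 again without HERVH knockdown replicate 1. Members called in HERVH element deleted against WT stayed at 0. The cause of these changes was not tested. Single members changed sign between CHD7 knockout and WT as follows: HNRNPA1L3 and MC1R with the GC correction, without CHD7 knockout replicate 1 and without WT replicate 2, NOD2 without WT replicate 2 and without CHD7 knockout replicate 2, and C16orf74 and DBNDD1 without CHD7 knockout replicate 2. A library left alone in its group was assumed to vary like the other groups. Genes with few counts, such as NOD2, WFDC1, OSGIN1 and CDH15, cannot be ordered by the size of their difference at this depth.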
